A study of Caenorhabditis elegans with 15 samples.

Results

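The genes described here are 10 genes of the p38 and JNK stress kinase cascade of Caenorhabditis elegans: tir-1, nsy-1, sek-1, pmk-1, pmk-2, pmk-3, atf-7, vhp-1, jnk-1 and kgb-1. They were chosen by name, and each was found by the WormBase gene identifier of its symbol in the deposited count table, 10 of 46778 genes. RNA of whole worms of N2, the wild-type laboratory strain, was sequenced in 15 samples. The 5 samples of the SiO2 group (replicates 11 to 15) came from worms given silicon dioxide nanoparticles at 10 µg/ml. The 5 samples of the Ag group (replicates 6 to 10) came from worms given silver nanoparticles at 10 µg/ml, and the 5 Control samples (replicates 1 to 5) came from worms given 0 µg/ml. In every group 350 to 400 first-stage larvae per well, fed the bacterium E. coli OP50, reached day 1 of adulthood after 72 h at 21 °C. By the study's methods the larvae grew up with the particles, whereas the sample labels place the incubation at the adult stage, so the stage at exposure differs between these descriptions. The labels name no growth day or sequencing batch, and p-values measure the spread between these samples, which may in part be technical. Each sample held many whole worms, so fewer cells of a type and less RNA per cell cannot be told apart.

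MAP kinase cascades pass a stress signal along a chain of kinases that phosphorylate each other. In the p38 branch the adaptor TIR-1 activates the kinase NSY-1, which activates SEK-1, which activates the p38 kinases, and PMK-1 then phosphorylates the transcription factor ATF-7 at genes of intestinal immunity. The JNK-type kinases JNK-1 and KGB-1 form parallel branches, KGB-1 being known for the response to heavy metals, and the phosphatase VHP-1 switches kinases of both kinds off. The activity of these proteins is set by phosphorylation, which RNA levels do not measure.

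Reads assigned to genes totalled 18352383 to 24296570 in SiO2 samples, 16560734 to 21504825 in Ag samples and 17693844 to 23678845 in Control samples. Each of the 10 genes had 213 to 6010 reads in every sample, and all 10 passed the filter of at least 3 reads in total. Levels are given in CPM, the reads of a gene per 1000000 reads assigned to genes, after TMM scaling for library composition. Markers of neurons, intestine, germ line, sperm, body wall muscle, hypodermis and the adult stage were all above 0 in every sample of these whole worms. Differences were tested gene by gene with the quasi-likelihood F test of edgeR over all tested genes, and a gene was called at an adjusted p under 0.05 (Benjamini-Hochberg). SE denotes the standard error of a log2 fold change. SiO2 replicate 14 stood apart in its weight on the fit of SiO2 against Ag, where 2052 genes were called without it, against 720 with it. The named genes whose call there turned on that sample (gpa-12, irg-4 and jnk-1) are also given without it. In SiO2 against Control 486 genes were called without SiO2 replicate 14 and 853 without SiO2 replicate 15, against 551 with all samples. In Ag against Control 353 were called without Control replicate 3, against 1604 with all samples. Ag replicate 8 stood apart in the summed intestine markers, with 2665 CPM against 1710 to 1886 CPM in the other Ag samples.

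Of the 10 cascade genes, 0 were called in SiO2 against Control, 1 in Ag against Control and 0 in SiO2 against Ag. The called gene was nsy-1, which fell in Ag worms. Of all tested genes 2.66% were called in SiO2 against Control, 7.76% in Ag against Control and 3.4% in SiO2 against Ag, so 1 of 10 in Ag was near the share of the whole table. DESeq2 called 0 of the 10 in SiO2 against Control, 2 in Ag against Control, adding sek-1 to nsy-1, and 0 in SiO2 against Ag. Over all its tested genes DESeq2 called 995 of 17920, 3167 of 15857 and 1647 of 15431 in these comparisons. The 2 of 10 in Ag were thus near the DESeq2 share of all genes. At an unadjusted p under 0.05 in edgeR there were 2 cascade genes in SiO2 against Control (14.9% of all tested genes), 3 in Ag against Control (29.9%) and 1 in SiO2 against Ag (20.9%).

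**Figure D1:**
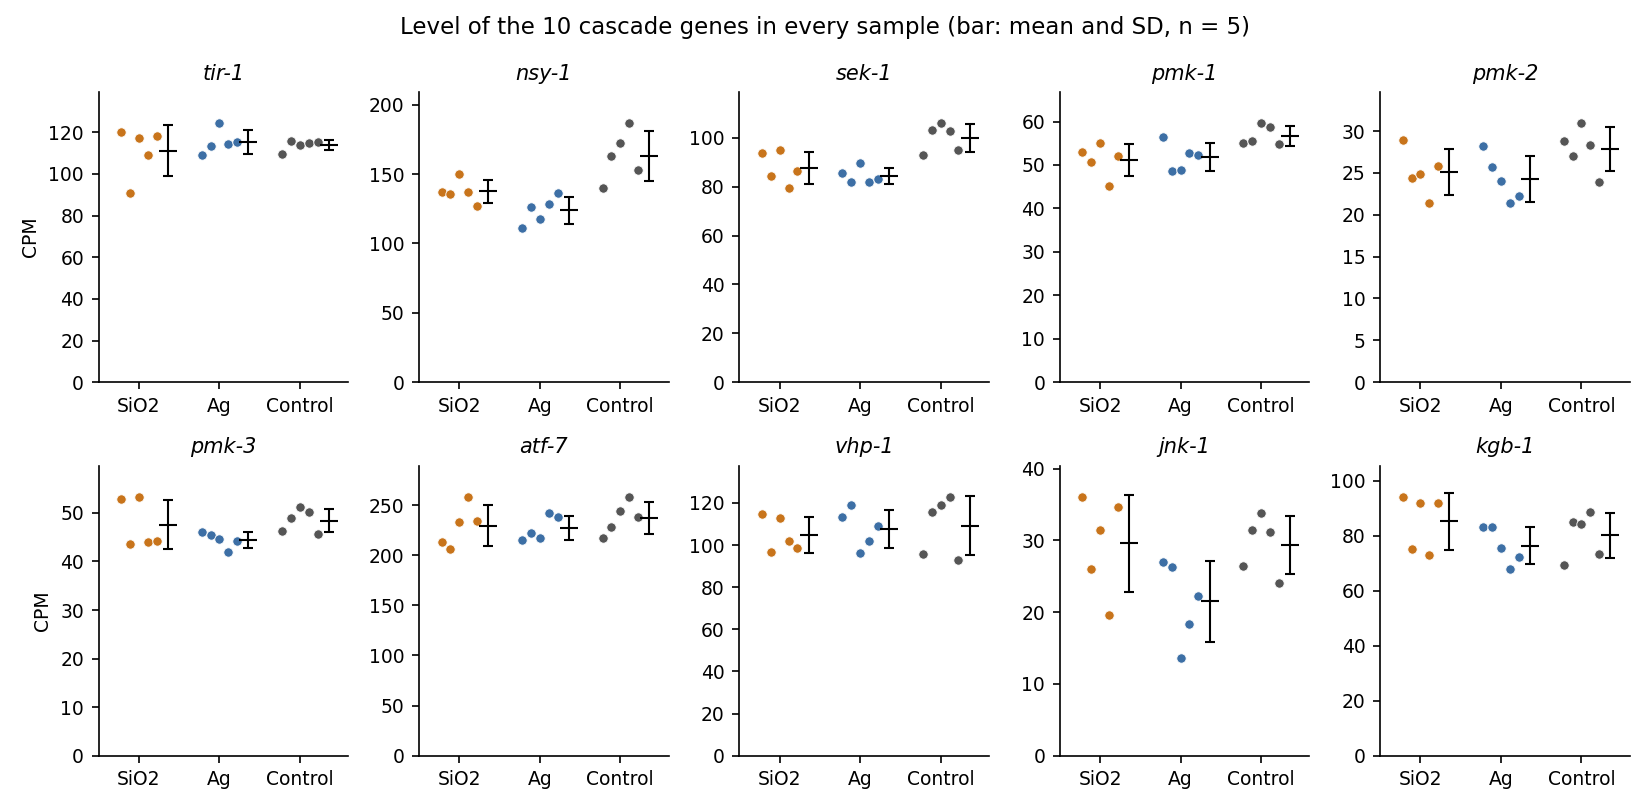
Level of each cascade gene in CPM (vertical axis from 0) in the SiO2, Ag and Control groups, with 1 point per sample and bars for the mean and SD (n = 5). All Ag points of nsy-1 and sek-1 lie below all Control points, and for the other 8 genes the points of every pair of groups overlap.

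The first member in order of signal flow is tir-1 (WBGene00006575, chromosome III, 3869590 to 3901642 of WBcel235, minus strand), the adaptor with a TIR domain that stands at the head of the p38 branch. tir-1 averaged 111 ± 12.2 CPM in SiO2 samples, 115 ± 5.65 in Ag samples and 114 ± 2.59 in Control samples (SD, n = 5 each). The differences were within the spread between samples, with log2 fold changes of -0.04 in SiO2 against Control (SE 0.09) and 0.02 in Ag against Control (SE 0.08). The 95% interval of the change ran from -14.7% to 11.4% in SiO2 and from -9.95% to 13.7% in Ag. SiO2 replicate 12, at 90.7 CPM, was the lowest of the 15 samples.

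nsy-1 (WBGene00003822, chromosome II, 5022757 to 5029999, plus strand) encodes the MAP3 kinase of the branch, of the ASK1 family, and is also known for fixing the left-right asymmetry of a pair of olfactory neurons. It had 137, 136, 150, 137 and 127 CPM in SiO2 replicates 11 to 15. It had 111, 127, 118, 128 and 136 CPM in Ag replicates 6 to 10. In Control replicates 1 to 5 it had 140, 163, 173, 187 and 153 CPM. All 5 Ag samples thus lay below all 5 Control samples, while the SiO2 range overlapped both other groups. nsy-1 fell by 0.39 on the log2 scale in Ag against Control (SE 0.10, edgeR adjusted p 0.0295), a change of -24% with a 95% interval of -34.2% to -12.1%.

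In SiO2 against Control the log2 fold change of nsy-1 was -0.25 (SE 0.09, adjusted p 0.202), and in SiO2 against Ag it was 0.15 (SE 0.09, adjusted p 0.343). Whether the Ag and SiO2 changes of nsy-1 differ was therefore tested and did not pass, with an interval of the SiO2 level against the Ag level from -2.6% to 26.3%. The call in Ag held under all 8 other settings of test, filter, scaling, quantification and samples (adjusted p 0.0068 to 0.041). It was lost when Control replicate 2, 3 or 4 or Ag replicate 6, 7 or 9 was left out, where the log2 fold change over the 10 single omissions stayed between -0.46 and -0.34 and the adjusted p reached 0.0875. The exons of nsy-1 overlap those of wdr-83 on the other strand by 56 bases and those of F59A6.13 on the same strand by 33 bases, and whether the counting used strand is not given in the sources used here.

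sek-1 (WBGene00004758, chromosome X, 7816734 to 7821036, plus strand) encodes the MAP2 kinase that NSY-1 activates. It had 93.6, 84.2, 94.8, 79.4 and 86.6 CPM in SiO2 samples. It had 85.7, 82, 89.6, 81.8 and 83.1 CPM in Ag samples, against 92.9, 103, 106, 103 and 95 CPM in Control samples. The Ag and Control groups did not overlap, and the SiO2 samples overlapped Control through replicates 11 and 13. Groups that do not overlap with all Ag samples lower were found for 2 of the 10 cascade genes, nsy-1 and sek-1, and for 4.91% of all tested genes. For SiO2 against Control and SiO2 against Ag, 0 of the 10 had groups that did not overlap, against 3.73% and 4.8% of all tested genes.

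The log2 fold change of sek-1 was -0.24 in Ag against Control (SE 0.08, adjusted p 0.0736), with an interval of -25.1% to -4.69%, and it was not called. DESeq2, the stricter filterByExpr filter and scaling by library size alone each called it in Ag, with adjusted p-values of 0.0132, 0.0404 and 0.0496. Of all tested genes these settings called 3167 of 15857, 2021 of 15368 and 1535 of 20669 in Ag. Over all 8 settings the adjusted p of sek-1 ran from 0.0132 to 0.0938. In SiO2 against Control the log2 fold change was -0.19 (SE 0.09, adjusted p 0.31), and in SiO2 against Ag it was 0.05 (SE 0.08, adjusted p 0.719). The exons of sek-1 share 70 bases with those of R03G5.6 on the other strand.

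**Figure D2:**
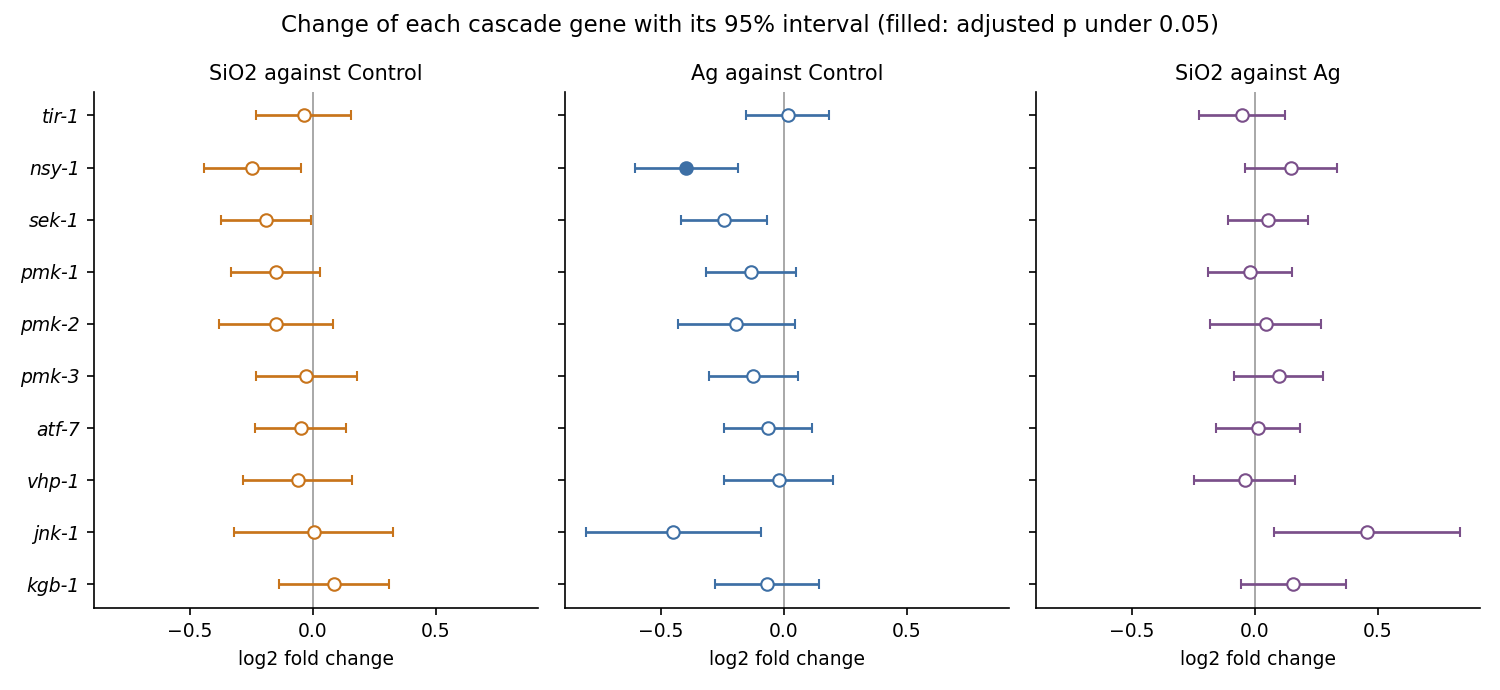
Log2 fold change of each cascade gene (horizontal axis) with its 95% interval in SiO2 against Control, Ag against Control and SiO2 against Ag. The filled point is nsy-1 in Ag, the called one at -0.39, and the intervals of jnk-1 are the widest in each of the 3 comparisons.

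The p38 kinase genes lie side by side on chromosome IV, all on the plus strand, in the order pmk-3 (WBGene00004057, 8139219 to 8143154), pmk-2 (WBGene00004056, 8143500 to 8148648) and pmk-1 (WBGene00004055, 8148794 to 8151266), and are known to be transcribed together as an operon. PMK-1 is the p38 kinase of immunity in the gut, PMK-2 acts mainly in the nervous system, and PMK-3 is known from the DLK-1 branch of axon growth and repair. pmk-1 had 53.1, 50.6, 55, 45.2 and 52 CPM in SiO2 samples. It had 56.5, 48.6, 48.8, 52.8 and 52.2 CPM in Ag samples, against 55.1, 55.5, 59.6, 58.8 and 54.7 CPM in Control samples. The ranges of pmk-1 overlapped, although 4 of 5 SiO2 samples and 4 of 5 Ag samples lay below the lowest Control sample.

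The log2 fold change of pmk-1 was -0.15 in SiO2 against Control (SE 0.09, adjusted p 0.441) and -0.13 in Ag against Control (SE 0.09, adjusted p 0.302), and neither was called. pmk-2 averaged 25.1 ± 2.7 CPM in SiO2 samples, 24.3 ± 2.75 in Ag samples and 27.8 ± 2.62 in Control samples (SD, n = 5 each). pmk-3 averaged 47.6 ± 5.07 CPM in SiO2 samples, 44.4 ± 1.59 in Ag samples and 48.4 ± 2.42 in Control samples (SD, n = 5 each). For these 3 kinases the smallest adjusted p against Control was 0.251, of pmk-2 in Ag. The 95% intervals of their changes against Control reached from at most 25.8% lower (-25.8%, pmk-2 in Ag) to at most 13.2% higher (pmk-3 in SiO2).

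Genes of an operon are cut from a shared transcript, so the ratios between them were compared within samples, where library scaling cancels but for the 0.1 CPM added. The gap is 345 bases between pmk-3 and pmk-2 and 145 bases between pmk-2 and pmk-1. The log2 ratio of pmk-2 to pmk-1 was -1.03 ± 0.0988 in SiO2 samples, -1.09 ± 0.162 in Ag samples and -1.03 ± 0.106 in Control samples (SD, n = 5 each). The log2 ratio of pmk-3 to pmk-1 was -0.107 ± 0.109 in SiO2 samples, -0.218 ± 0.103 in Ag samples and -0.229 ± 0.0313 in Control samples (SD, n = 5 each). The ratio of pmk-3 to pmk-1 was thus higher by 0.122 in SiO2 than in Control, with 3 of 5 SiO2 samples above every Control sample (two-sided exact permutation p 0.0794, adjusted over 6 ratio comparisons 0.429). With the deposited Kallisto estimates this difference was 0.134 and passed (adjusted p 0.0476). The other 5 comparisons had exact permutation p-values of 0.143 to 0.976, and the smallest p that 5 against 5 samples allow is 0.00794.

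**Figure D3:**
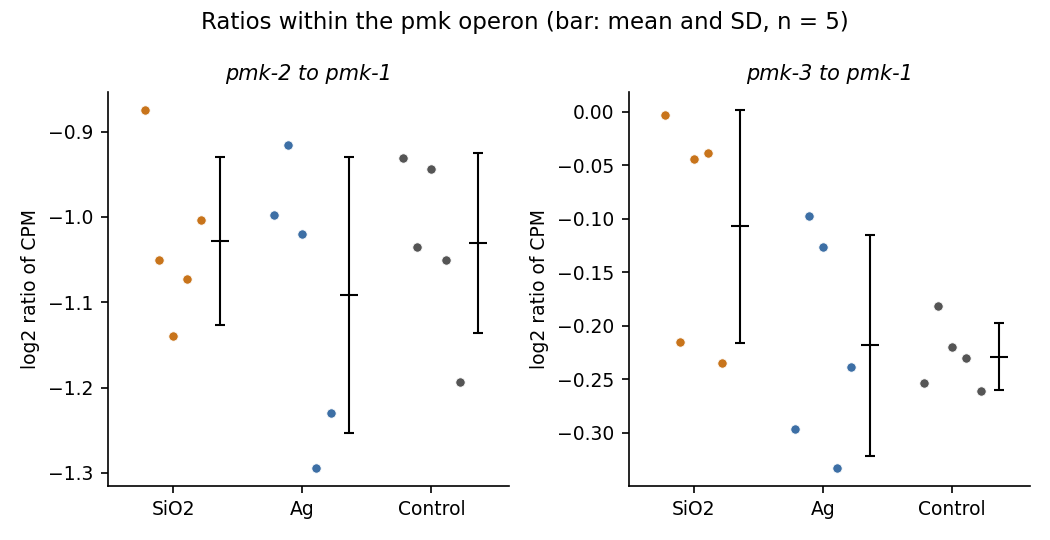
Log2 ratio of CPM of pmk-2 to pmk-1 (left) and of pmk-3 to pmk-1 (right), with 1 point per sample in the SiO2, Ag and Control groups and bars for the mean and SD (n = 5). In the right panel 3 SiO2 points lie between -0.0442 and -0.00289, above the highest Control point at -0.182.

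atf-7 (WBGene00000223, chromosome III, 4491627 to 4499045, minus strand), the transcription factor that PMK-1 phosphorylates, averaged 229 ± 20.4 CPM in SiO2 samples, 227 ± 12.3 in Ag samples and 237 ± 15.6 in Control samples (SD, n = 5 each). vhp-1 (WBGene00006923, chromosome II, 5323276 to 5340829, plus strand), the phosphatase, averaged 105 ± 8.4 CPM in SiO2 samples, 108 ± 9.04 in Ag samples and 109 ± 13.9 in Control samples (SD, n = 5 each). The 3 groups overlapped for both genes. The log2 fold changes of atf-7 were -0.05 in SiO2 and -0.06 in Ag against Control, and those of vhp-1 were -0.06 in SiO2 and -0.02 in Ag. The intervals against Control ran from -15.5% (Ag) to 9.91% (SiO2) for atf-7 and from -17.8% (SiO2) to 15.0% (Ag) for vhp-1. The exons of atf-7 overlap those of C07G2.5 on the same strand by 72 bases.

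jnk-1 (WBGene00002178, chromosome IV, 6957641 to 6963719, plus strand), the JNK gene known from neurons and coordinated movement, was the most variable of the 10. It had 36.1, 26, 31.5, 19.6 and 34.6 CPM in SiO2 replicates 11 to 15. It had 27, 26.4, 13.7, 18.3 and 22.2 CPM in Ag replicates 6 to 10, against 26.4, 31.5, 33.9, 31.2 and 24.1 CPM in Control replicates 1 to 5. The Ag values were spread widely, with replicate 8 lowest, and overlapped Control. The coefficient of variation of jnk-1 was 22.9% in SiO2, 26.1% in Ag and 13.7% in Control, against 2.27% to 12.76% for the other 9 genes over the 3 groups.

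The log2 fold change of jnk-1 was -0.45 in Ag against Control (SE 0.17, adjusted p 0.0979) and 0.0034 in SiO2 against Control (SE 0.15, adjusted p 1.0), and neither was called. For SiO2 against Ag it was 0.46 (SE 0.18, adjusted p 0.158), with an interval of the SiO2 level from 5.66% to 78.2% above the Ag level. Without SiO2 replicate 14, the lowest of its group, that difference was 0.57 and was called (adjusted p 0.0407), and over the 15 single omissions its adjusted p ran to 0.351. kgb-1 (WBGene00002187, chromosome IV, 405621 to 410035, minus strand), the JNK-type kinase gene of the heavy metal response, averaged 85.2 ± 10.3 CPM in SiO2 samples, 76.4 ± 6.77 in Ag samples and 80.1 ± 8.3 in Control samples (SD, n = 5 each). Its log2 fold changes were 0.09 in SiO2 and -0.07 in Ag against Control (SE 0.10 for each), and its groups overlapped.

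Over the 10 genes, 8 log2 fold changes were negative in SiO2 against Control (47.3% of all tested genes), with a median of -0.06 against 0.01 over all tested genes. In Ag against Control 9 were negative (50.6% of all tested genes), with a median of -0.13 against -0.01 over all tested genes. The sign of tir-1 in Ag turned under library size scaling and with the Kallisto estimates. The SiO2 and Ag values share the same Control samples. Between SiO2 and Ag 3 of the 10 were negative (49.2% of all tested genes), with a median of 0.05.

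Cell type markers were set beside nsy-1, sek-1 and jnk-1, of which only nsy-1 was called, in Ag. Of 12 neuron markers, 12 had negative log2 fold changes in Ag against Control (50.6% of all tested genes, median -0.32). The 1 called was unc-119, a marker expressed throughout the nervous system, which fell by 0.50 (SE 0.11, adjusted p 0.02). The other 11 were not called, and 3.41% of all tested genes were called as lower. In SiO2 against Control 11 of the 12 neuron markers were negative (47.3% of all tested genes, median -0.11), and 0 were called (2.66%). The summed level of the neuron markers was 939 to 1305 CPM in SiO2 samples, 949 to 1212 CPM in Ag samples and 1157 to 1412 CPM in Control samples. Of 7 body wall muscle markers, 7 were negative in Ag (median -0.23). The muscle transcription factor gene hlh-1 fell by 0.51 (SE 0.14, adjusted p 0.0371), and the other 6 were not called. In SiO2 against Control 6 of the 7 muscle markers were negative (median -0.07), and 0 were called. The muscle sum was 2764 to 3504 CPM in SiO2 samples, 2425 to 3412 CPM in Ag samples and 2735 to 4263 CPM in Control samples. Of 8 germ line markers, 8 were positive in Ag (49.4% of all tested genes, median 0.65). Of these, gld-1, glh-1, pgl-1 and pgl-3 rose (4.35% of all tested genes rose), and the other 4 were not called. In SiO2 against Control all 8 germ line markers were positive as well (52.7% of all tested genes, median 0.24), and 0 were called. The germ line sum was 1193 to 2782 CPM in SiO2 samples, 1818 to 3147 CPM in Ag samples and 1172 to 2207 CPM in Control samples. Of 5 sperm markers, 5 were positive in SiO2 (52.7% of all tested genes, median 1.118) and 5 in Ag (49.4%, median 1.00). In SiO2 0 were called by edgeR (2.66% of all tested genes), 2 by DESeq2 (5.55%) and 3 at an unadjusted p under 0.05 (14.9%). In Ag spe-41 rose by 1.36 (SE 0.20, adjusted p 0.00191), and the other 4 were not called. Reads per sample were few for spe-9 (5 to 29), spe-38 (1 to 9) and peel-1 (2 to 25), which limits their precision. The sperm sum was 4.73 to 14.2 CPM in SiO2 samples, 7.31 to 17.2 CPM in Ag samples and 4.01 to 6.21 CPM in Control samples. Of 4 adult stage markers, 2 were positive and 2 negative in Ag. The 1 called in Ag was vit-6, which rose by 0.34 (edgeR adjusted p 0.0299), and the other 3 were not called. vit-6 had 19720 to 22260 CPM in Ag samples and 14120 to 17650 CPM in Control samples. In SiO2 against Control 0 of the 4 were called.

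The marker sums and nsy-1 were also set side by side within groups, with no test. In Control replicates 1 to 5 the muscle sum was 2884, 3664, 3683, 4263 and 2735 CPM, so that replicates 2, 3 and 4 were the highest 3 in the muscle sum and in nsy-1. In the Ag group replicate 9 had the lowest neuron sum (949 CPM) and muscle sum (2425 CPM) and the second highest nsy-1 level, at 128 CPM. SiO2 replicate 14 had the lowest neuron sum (939 CPM) and the highest germ line sum (2782 CPM) of the SiO2 group, together with the lowest jnk-1 (19.6 CPM) and the lowest sek-1 (79.4 CPM) of that group. The part of tissue makeup in the values of nsy-1, sek-1 and jnk-1 was not tested. None of these markers was at 0 in any sample.

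**Figure D4:**
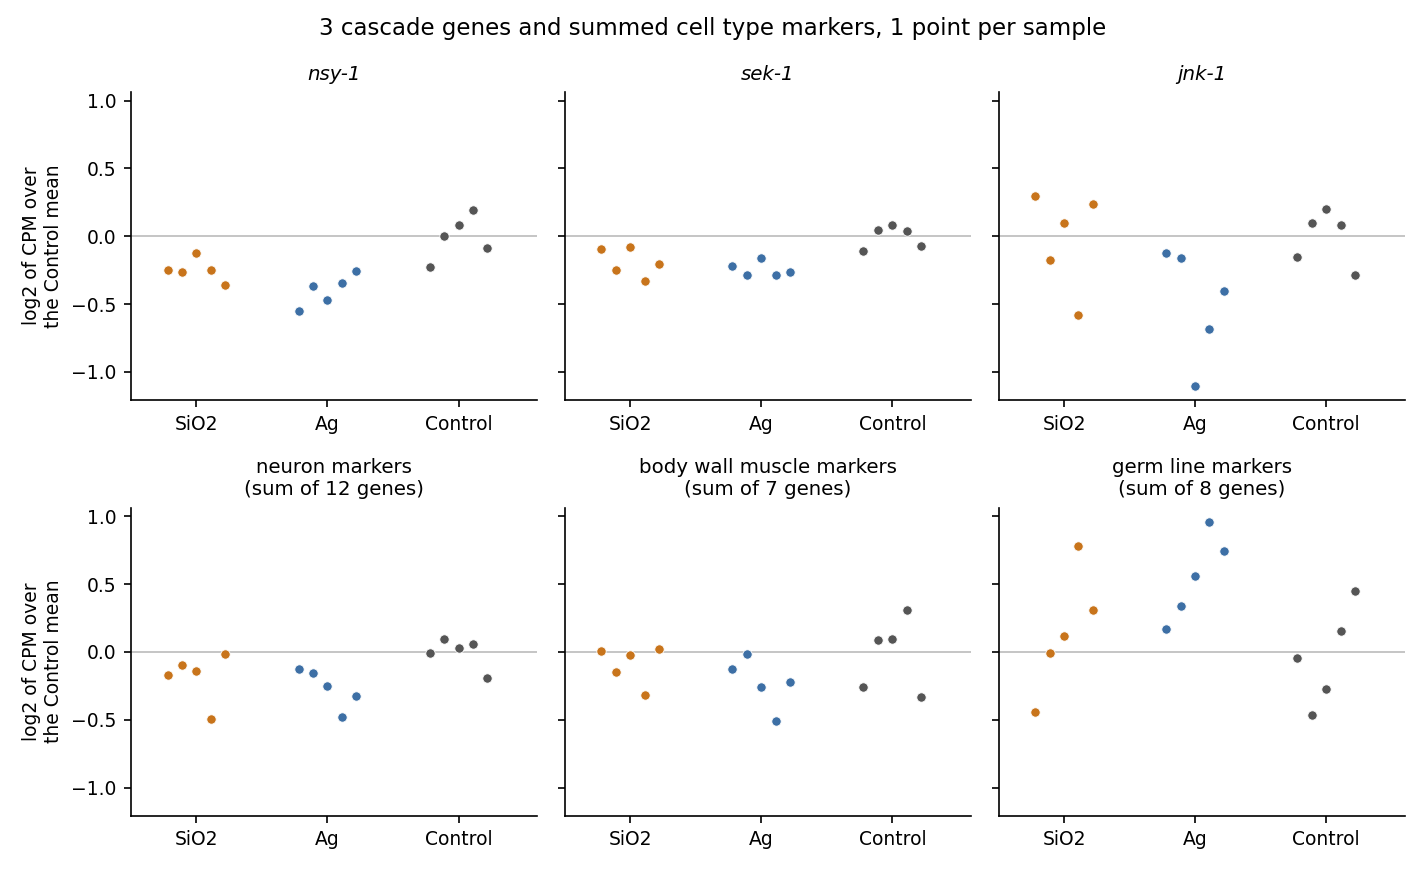
Log2 of each sample's CPM over the Control mean (vertical axis) for nsy-1, sek-1 and jnk-1 (top) and for the summed markers of neurons, body wall muscle and germ line (bottom), in the SiO2, Ag and Control groups. All Ag points of the 3 kinase genes lie below 0, as do those of the neuron and muscle sums, and all Ag points of the germ line sum lie above 0. In the muscle sum the highest Ag point is at -0.014, and Control points reach down to -0.333.

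The levels of the 10 genes were also set against each other, in CPM per kilobase of exon length. In Control samples atf-7 stood highest at 87.4 ± 5.76, followed by kgb-1 at 49.3 ± 5.12, sek-1 at 48.7 ± 2.77, vhp-1 at 35.2 ± 4.49 and pmk-1 at 34 ± 1.37 CPM per kilobase (SD, n = 5). Below them came nsy-1 at 32.2 ± 3.56, pmk-3 at 25.9 ± 1.3, tir-1 at 18.8 ± 0.427, pmk-2 at 18.1 ± 1.7 and jnk-1 at 12.4 ± 1.69 CPM per kilobase (SD, n = 5). The ranges of neighbours in this order overlapped for kgb-1 and sek-1, vhp-1 and pmk-1, pmk-1 and nsy-1, and tir-1 and pmk-2, so the order within these pairs is not set by more than their spread. The SiO2 and Ag means followed the same order. In Ag, where nsy-1 averaged 24.5 ± 1.92 CPM per kilobase (SD, n = 5), its range lay below that of pmk-1 and overlapped that of pmk-3, whereas in Control it overlapped pmk-1 and lay above pmk-3.

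The genes with profiles most like nsy-1 over the 15 samples were myrf-2, flh-2 and sor-1. Likeness was the root mean square difference of log2 CPM, each gene centred on its own mean, among 10978 genes with a mean of at least 5 CPM, and it was 0.0562 for myrf-2, 0.0598 for flh-2 and 0.068 for sor-1, where nsy-1 varied by 0.195 about its own mean. myrf-2 averaged 163 ± 7.85 CPM in SiO2 samples, 151 ± 13.3 in Ag samples and 191 ± 19.1 in Control samples (SD, n = 5 each). For pmk-1 the closest were mig-2 (0.0598), ags-3 (0.0658) and R10E4.1 (0.0708), where pmk-1 itself varied by 0.104. All these genes share the 15 libraries and their scaling.

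The other genes of the pathways were taken from 5 lists of 61 genes in all, and all 61 were tested. The lists were chosen with earlier results of these data known, which limits a comparison with the shares of all tested genes. Calls among the 61 were as follows. Of these, 4 were called in SiO2 against Control (6.56%, against 2.66% of all tested genes), all lower. In Ag against Control 5 were called (8.2%, against 7.76% of all tested genes), 3 higher and 2 lower. In SiO2 against Ag 7 were called (11.5%, against 3.4%), 1 higher and 6 lower.

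Upstream of p38 stand receptors, G proteins, phospholipases and kinases known to act ahead of the cascade. Of 11 such genes, 0 were called by edgeR in any of the 3 comparisons, and DESeq2 called 0, 0 and 1 in SiO2 against Control, Ag against Control and SiO2 against Ag. At an unadjusted p under 0.05 there were 1 in SiO2 against Control (14.9% of all tested genes), 2 in Ag against Control (29.9%) and 2 in SiO2 against Ag (20.9%). All 11 log2 fold changes were negative in Ag against Control (50.6% of all tested genes), with a median of -0.20 and a range of -0.85 to -0.03. The lowest value was that of trf-1, which rests on 0 to 3 reads per Ag sample and 0 to 9 per Control sample. tol-1, the Toll receptor gene of the worm, averaged 81.1 ± 5.99 CPM in SiO2 samples, 73.6 ± 8.52 in Ag samples and 91.1 ± 9.5 in Control samples (SD, n = 5 each), and its log2 fold change in Ag was -0.31 (SE 0.11, adjusted p 0.0794). gpa-12, the G protein gene that couples to p38 in the epidermis, averaged 11.8 ± 2.12 CPM in SiO2 samples and 8.11 ± 1.72 in Ag samples (SD, n = 5 each), which made 0.53 on the log2 scale (SE 0.16, adjusted p 0.0642). That difference of gpa-12 was called by DESeq2 (adjusted p 0.0186), by the likelihood ratio test (0.0269) and without SiO2 replicate 14 (0.64, adjusted p 0.0135), and its adjusted p ran from 0.0186 to 0.146 over the 8 settings and from 0.0135 to 0.16 over the 15 single omissions.

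Of 19 genes of the JNK-type and DLK modules, 0 were called in SiO2 against Control by edgeR, by DESeq2 or at an unadjusted p under 0.05. The shares of all tested genes there were 2.66%, 5.55% and 14.9%. By edgeR 2 of the 19 rose in Ag against Control (4.35% of all tested genes rose), and 1 was lower in SiO2 than in Ag (1.36% of all tested genes). The gene that moved most was kreg-1 (chromosome X, 8709764 to 8710015, plus strand), a small gene named for its regulation by KGB-1 and known to be induced by metals. kreg-1 had 2.81, 1.27, 2.32, 2.06 and 1.59 CPM in SiO2 samples. It had 5.52, 7.96, 10.2, 6.77 and 7.25 CPM in Ag samples, against 1.54, 2.84, 3.22, 2.32 and 2.14 CPM in Control samples. All Ag samples were above all samples of both other groups, and SiO2 and Control overlapped.

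kreg-1 rose 3.11-fold in Ag against Control, or by 1.64 on the log2 scale (SE 0.22, adjusted p 0.00118), on 122 to 171 reads per Ag sample and 31 to 70 per Control sample. In SiO2 against Control its log2 fold change was -0.28 (SE 0.25, adjusted p 0.7), and in SiO2 against Ag it fell by 1.91 (SE 0.23, adjusted p 0.000103). The call in Ag held under all 8 settings and all 10 single omissions. fsn-1, the F-box gene of the ubiquitin ligase that limits DLK-1, averaged 72.9 ± 14.3 CPM in SiO2 samples, 88.6 ± 10.4 in Ag samples and 67.8 ± 8.58 in Control samples (SD, n = 5 each). It rose by 0.39 in Ag against Control (SE 0.11, adjusted p 0.0439), a call that was lost in 8 of 10 single omissions and under 3 of 8 settings.

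In the ERK and NLK modules 1 of 15 genes was called in Ag against Control (7.76% of all tested genes were called, 3.41% as lower), gap-1, which encodes a Ras GTPase-activating protein that damps the ERK branch. It had 15.2, 12.3, 14.7, 11.5 and 12 CPM in SiO2 samples. It had 11, 10.6, 11.2, 9.59 and 10.2 CPM in Ag samples, against 13.7, 14.1, 14.7, 15.9 and 12.4 CPM in Control samples, and the Ag samples lay below all samples of both other groups. gap-1 fell by 0.43 in Ag against Control (SE 0.12, adjusted p 0.0388), which 6 of the 10 single omissions ended. None of the 15 was called in SiO2 against Control by edgeR, by DESeq2 or at an unadjusted p under 0.05 (2.66%, 5.55% and 14.9% of all tested genes). In the SKN-1 branch, the oxidative stress output of PMK-1, 1 of 7 genes was called in SiO2 against Ag (2.04% of all tested genes were higher in SiO2): gst-10, a glutathione transferase gene. It averaged 25.1 ± 1.75 CPM in SiO2 samples, 18.8 ± 2.2 in Ag samples and 20.6 ± 0.367 in Control samples (SD, n = 5 each). It was higher in SiO2 than in Ag by 0.42 (SE 0.10, adjusted p 0.0208). This call was lost with the Kallisto estimates (0.35, adjusted p 0.0745, over the 8 settings 8.62e-05 to 0.0745) and without Ag replicate 9 (adjusted p 0.0602) or SiO2 replicate 13 (0.0536). Against Control edgeR called 0 of the 7 in either exposure. DESeq2 called 0 in Ag and 1 in SiO2, gst-10 (0.282, adjusted p 0.0193, over the 8 settings 0.0193 to 0.188). In Ag against Control the log2 fold change of gst-10 ran from -0.161 to -0.0968 over the 8 settings.

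The p38 output list held 9 immune genes linked to PMK-1, among them CUB-like genes, C-type lectins and infection response genes. It was chosen with earlier results of these data known, and the study reports lower innate immune genes in SiO2. Its counts are therefore no independent test against the shares of all tested genes. Of the 9, 0 rose (1.91% of all tested genes rose) and 4 fell (0.743% fell) in SiO2 against Control, with a median log2 fold change of -0.99 against 0.01 over all tested genes. In Ag against Control 1 rose (4.35% of all tested genes rose) and 1 fell (3.41%), with a median of 0.04. Between SiO2 and Ag 5 of the 9 were lower in SiO2 (1.36% of all tested genes), with a median of -0.90.

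C17H12.8 (chromosome IV, 6818703 to 6820575, plus strand), a CUB-like gene, had 269, 239, 268, 203 and 471 CPM in SiO2 samples. It had 597, 483, 713, 462 and 456 CPM in Ag samples, against 825, 556, 491, 574 and 713 CPM in Control samples. All SiO2 samples lay below all Control samples, with replicate 15 far above the other SiO2 samples. C17H12.8 fell by 1.13 in SiO2 against Control (SE 0.19, adjusted p 0.0033), a change of -54.3%, and its log2 fold change in Ag was -0.22 (SE 0.15, adjusted p 0.341).

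clec-67 (chromosome IV, 3922165 to 3925039, plus strand), a C-type lectin gene, had 46.7, 41.8, 59.4, 61 and 68.3 CPM in SiO2 samples. It had 66.4, 67.4, 164, 98 and 83.8 CPM in Ag samples, against 94.3, 87.1, 74.5, 104 and 125 CPM in Control samples. It fell by 0.81 in SiO2 against Control (SE 0.14, adjusted p 0.00609), where the groups did not overlap. The call was lost in the fit of all 15 samples (adjusted p 0.08, over the 8 settings 2.26e-05 to 0.08). In Ag its log2 fold change was -0.02 (SE 0.21, adjusted p 0.965), with Ag replicate 8 the highest of the 15 samples. That sample, the one with the high intestine sum, was also the highest Ag sample of C17H12.8, K08D8.5, T24B8.5, irg-6 and kreg-1.

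K08D8.5 (chromosome IV, 12910647 to 12912129, minus strand) had 7.97, 6.72, 9.46, 11.3 and 19.5 CPM in SiO2 samples. It had 20.3, 21.8, 34.3, 25.2 and 24.8 CPM in Ag samples, against 23.2, 18.6, 16.7, 23.3 and 27.5 CPM in Control samples. K08D8.5 fell by 0.99 in SiO2 against Control (SE 0.23, adjusted p 0.0297), with replicate 15 inside the Control range, and 6 of 10 single omissions ended the call. T24B8.5 (chromosome II, 9082626 to 9083193, minus strand), named sysm-1 in the current annotation and widely used as a reporter of PMK-1, had 0.266, 0.672, 0.403, 0.343 and 0.846 CPM in SiO2 samples. It had 2.13, 1.118, 2.44, 2.33 and 2.32 CPM in Ag samples, against 2.93, 1.39, 1.34, 0.903 and 3.12 CPM in Control samples. T24B8.5 fell by 1.88 in SiO2 against Control (SE 0.39, adjusted p 0.0164) on 5 to 17 reads per SiO2 sample and 21 to 59 per Control sample, and the call was lost with the Kallisto estimates (adjusted p 0.15, over the 8 settings 0.000276 to 0.15) and without Control replicate 1 or SiO2 replicate 13 (adjusted p up to 0.0556).

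irg-6 (chromosome IV, 12912722 to 12914969, minus strand), the annotated neighbour of K08D8.5 on the same strand, had 0.478, 0.158, 0.604, 0.628 and 0.299 CPM in SiO2 samples. It had 1.95, 1.68, 5.14, 2.87 and 2.32 CPM in Ag samples, against 1.14, 0.482, 0.507, 0.817 and 1.39 CPM in Control samples. All Ag samples were above all samples of both other groups. irg-6 rose by 1.68 in Ag against Control (SE 0.36, adjusted p 0.0162), was -1.01 in SiO2 against Control (SE 0.40, adjusted p 0.225), and fell by 2.69 in SiO2 against Ag (SE 0.40, adjusted p 0.000596) on 4 to 80 reads per sample. Without Control replicate 2 or 3 the call in Ag was lost (adjusted p up to 0.0538).

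irg-4 (chromosome IV, 12435833 to 12438236, plus strand) averaged 1.5 ± 0.563 CPM in SiO2 samples, 0.783 ± 0.256 in Ag samples and 1.49 ± 0.238 in Control samples (SD, n = 5 each). It fell by 0.93 in Ag against Control (SE 0.27, adjusted p 0.0462), on 9 to 22 reads per Ag sample and 22 to 41 per Control sample. This call was lost in 7 of 10 single omissions and with the Kallisto estimates (adjusted p 0.0546, over the 8 settings 0.0148 to 0.0546). The list's 5 lower genes in SiO2 against Ag were irg-6, K08D8.5 (-1.20, adjusted p 0.00588), T24B8.5 (-1.99, adjusted p 0.00588), C17H12.8 (-0.90, adjusted p 0.0133) and clec-67 (-0.79, adjusted p 0.0447). The call of T24B8.5 there was lost with the Kallisto estimates (adjusted p 0.0601, over the 8 settings 3.48e-05 to 0.0601). That of clec-67 was lost with both groups fitted alone (adjusted p 0.0762, over the 8 settings 0.00772 to 0.0762) and in 7 of 15 single omissions, and without Ag replicate 8 the difference of clec-67 was -0.51 (adjusted p 0.0978). Without SiO2 replicate 14 irg-4 was called as higher in SiO2 than in Ag (1.11, adjusted p 0.018), against 0.95 with all samples (SE 0.29, adjusted p 0.0717, over the 15 single omissions 0.018 to 0.167), and DESeq2 (0.0276) and the likelihood ratio test (0.0299) called it with all samples (over the 8 settings 0.0276 to 0.146). The remaining members of the list, irg-5, clec-85 and nlp-29, did not pass in any of the 3 comparisons by edgeR, and irg-5 had at most 15 reads in any sample. Beside these values, 2 of 5 hypodermis markers, the collagen genes dpy-13 and rol-6, rose by 2.94 (SE 0.40, adjusted p 0.000679) and 2.23 (SE 0.41, adjusted p 0.00695) in SiO2 against Control (1.91% of all tested genes rose). The other 3 had negative log2 fold changes, the lowest at -0.18, and were not called. The median of the 5 was -0.04. The summed hypodermis level was 263 to 333 CPM in SiO2 samples and 248 to 329 CPM in Control samples. Of the 7 intestine markers 0 were called in SiO2 against Control by edgeR (2.66% of all tested genes) or DESeq2 (5.55%). At an unadjusted p under 0.05 there was 1 (14.9% of all tested genes), and the median log2 fold change was -0.02. The intestine sum was 1511 to 1931 CPM in SiO2 samples, 1710 to 2665 CPM in Ag samples and 1750 to 2030 CPM in Control samples. The part of tissue makeup in the output genes was not tested.

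**Figure D5:**
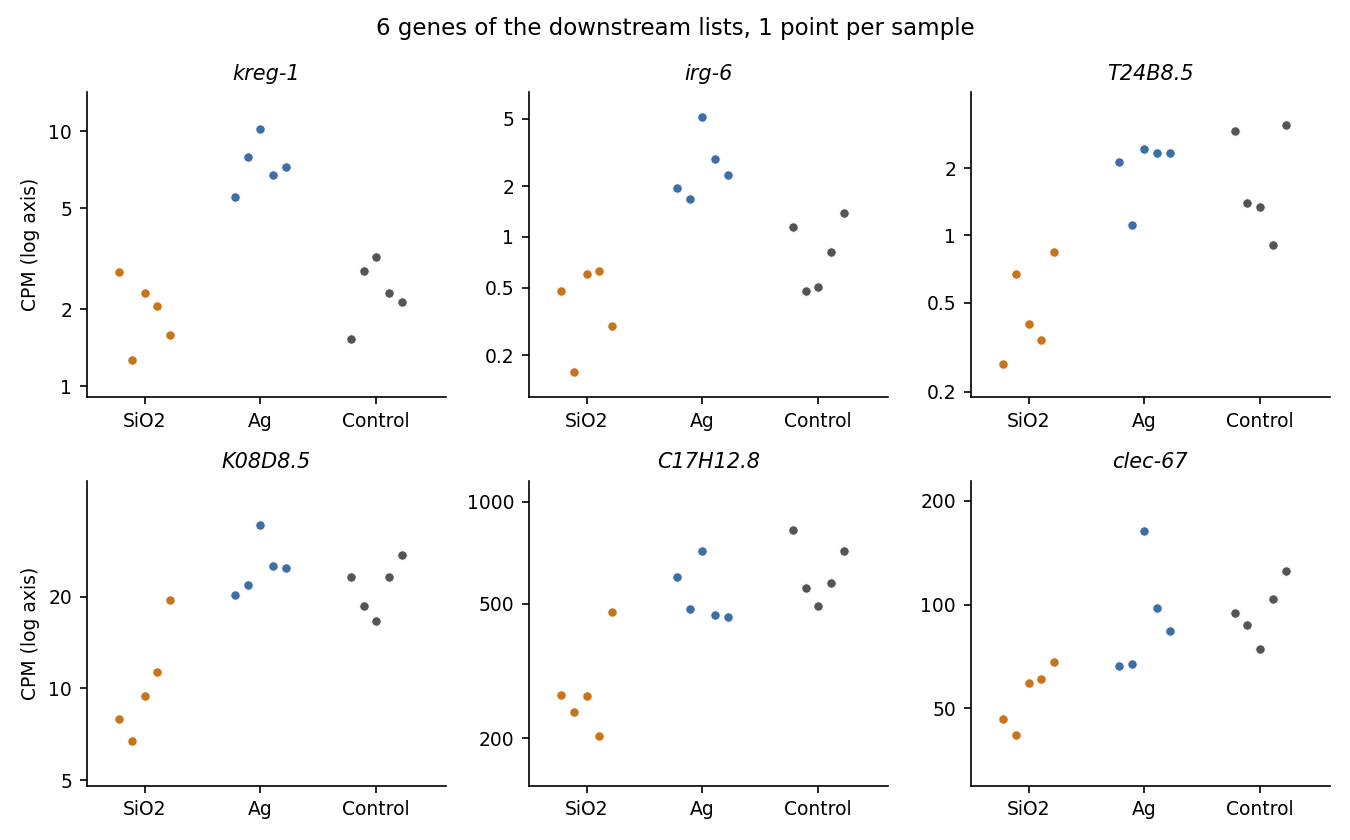
CPM (log axis) of kreg-1, irg-6, T24B8.5, K08D8.5, C17H12.8 and clec-67 in the SiO2, Ag and Control groups, with 1 point per sample. kreg-1 and irg-6 are high in all 5 Ag samples, from 5.52 to 10.2 CPM and from 1.68 to 5.14 CPM, and the other 4 genes are low in SiO2, where replicate 15 is the highest SiO2 point of each.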

How the data were processed

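RNA of whole worms was read in 15 samples, 5 each of SiO2, Ag and Control. With Trim Galore 0.4.5, HISAT2 2.1.0, SAMtools 1.7 and HTSeq 0.9.1 in intersection-strict mode the authors made the deposited read counts per gene, on WBcel235 and Ensembl release 91. The deposited estimated counts from Kallisto, rounded here, served as an alternative. The counts are not normalised, and reads that fit several genes are left out in that mode.

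edgeR 4.0.16 in R 4.3.3 was fitted to the 10 samples of each exposure and Control (SiO2 against Ag from all 15 samples), with TMM scaling, at least 3 counts in total, the quasi-likelihood F test and Benjamini-Hochberg adjustment over all tested genes. CPM used the TMM factors of all 15 samples, and SE is the log2 fold change over the root of F. Operon ratios were compared by the exact permutation test over 252 arrangements. Symbols, positions and exon lengths came from Ensembl release 115 of WBcel235, which held 46603 of 46778 identifiers. The code was tested on simulated counts. Alternatives were a likelihood ratio test, DESeq2 1.42.0, filterByExpr, at least 1 count, RLE, library size alone, Kallisto, other samples in the fit, a pseudocount of 1 CPM, and leaving out each sample.

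Named were the 10 genes, the called genes of each pathway list (at most 4 per comparison, by p; where none was called, the 2 with the smallest p) and the 3 profiles most like nsy-1 and pmk-1. Other pathway and marker genes are named after their values were seen. The members and lists were chosen with earlier results of these data known.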

Additional observations from a re-analysis of the deposited data

Results flagged for a closer look

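In 72 groups of 5 samples, 3 single samples stood apart from the other 4 by Dixon's test, which chance does in about 1 in 20 groups. tol-1 had 58.68 CPM in Ag replicate 8, the lowest of its group. C17H12.8 had 471 CPM in SiO2 replicate 15, the highest of its group. T24B8.5 had 1.118 CPM in Ag replicate 7, the lowest of its group.

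The changes against Control differed between SiO2 and Ag, tested as SiO2 minus Ag in the fit of all 15 samples by edgeR, for 7 named genes and for 0 of the 10 cascade genes. In this test 3.4% of all tested genes were called. Pathway genes were named in part because this test called them, so the 7 cannot be set against the 0 of the cascade genes. The log2 differences were -2.692 for irg-6, -1.986 for T24B8.5, -1.912 for kreg-1, -1.202 for K08D8.5, -0.9033 for C17H12.8, -0.7902 for clec-67 and 0.4201 for gst-10. Of the 10 cascade genes 1, jnk-1, had an unadjusted p under 0.05 in this test (20.9% of all tested genes), and DESeq2 called 0 (10.7% of all its tested genes).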

How the results depend on the processing

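No paired analysis was possible because each sample has a replicate number of its own. With single samples left out, the cascade genes called ran from 0 to 1 in Ag against Control (0 without Control replicate 2, 3 or 4 or Ag replicate 6, 7 or 9) and from 0 to 1 in SiO2 against Ag (jnk-1, without SiO2 replicate 14). They stayed at 0 in SiO2 against Control. DESeq2, filterByExpr and library size alone gave 2 in Ag, nsy-1 and sek-1. Of all tested genes they called 3167 of 15857, 2021 of 15368 and 1535 of 20669 there. The pathway list genes called in Ag were 3 with the Kallisto estimates and 1 to 5 over single omissions, and in SiO2 against Control 2 (without SiO2 replicate 13) to 4. With the Kallisto estimates the pmk-3 to pmk-1 ratio in SiO2 against Control was 0.134 (exact permutation, adjusted p 0.0476), and the pmk-2 to pmk-1 ratio turned to -0.00221.

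Some values that had not been called turned sign, all of them near 0 in the main fit except that of kreg-1. In SiO2 against Ag, atf-7 turned to -0.00235 under DESeq2, -0.0312 under filterByExpr, -0.00223 under RLE and -0.0407 under Kallisto, pmk-2 to -0.00402 under filterByExpr and -0.0099 under Kallisto, sek-1 to -0.0185 under Kallisto, and pmk-1 to 0.000665 under library size alone. tir-1 in Ag turned to -0.00974 under library size alone and -0.000489 under Kallisto. In SiO2 against Control, Kallisto gave -0.0474 for irg-4 and 0.15 for kreg-1.

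Over single omissions, log2 fold changes in Ag against Control ran from -0.0871 to 0.322 for T24B8.5, -0.298 to 0.0858 for clec-67, -0.0141 to 0.0294 for tir-1 and -0.0857 to 0.0267 for vhp-1, and the pmk-3 to pmk-1 ratio from -0.0196 to 0.0393. In SiO2 against Control they ran from -0.00547 to 0.182 for fsn-1, -0.178 to 0.166 for irg-4, -0.0853 to 0.112 for jnk-1, -0.0731 to 0.00398 for pmk-3 and -0.0728 to 0.0268 for tir-1, and the pmk-2 to pmk-1 ratio from -0.0383 to 0.0303. In SiO2 against Ag they ran from -0.0331 to 0.0473 for atf-7, -0.0441 to 0.0247 for pmk-1, -0.0107 to 0.107 for pmk-2 and -0.0823 to 0.0137 for tir-1.

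Over all tested genes, calls in Ag against Control were 1604 in the test reported, 2763 by the likelihood ratio test, 3167 by DESeq2 and 353 to 1833 over single omissions (lowest without Control replicate 3). In SiO2 against Control they were 551, 1095 by the likelihood ratio test, 995 by DESeq2, 222 in the fit of all 15 samples and 251 to 853 over single omissions. In SiO2 against Ag they were 720, 1474 by the likelihood ratio test, 1647 by DESeq2, 409 with both groups fitted alone and 392 to 2052 over single omissions (highest without SiO2 replicate 14).

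The causes of these changes were not tested, and an omission also lowers the number of samples. T24B8.5 (5 to 59 reads per sample) and irg-6 (4 to 80) rest on few reads, which limits their precision.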
